A study of Mus musculus with 6 samples.

Results

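The genes described here are interferon-stimulated genes other than the interferon-inducible GTPases, in chemically induced mouse liver tumours with and without an Alb/AEG-1 transgene. The list named 37 genes, and 33 of them had a probe set that carries their symbol alone, out of 12393 genes on the array. Isg15, Ddx58, Ifi44 and Ifi27 had no such probe set and were not analysed here. The 33 genes were measured by 51 probe sets, and the probe set with the highest mean over the 6 arrays stood for a gene. The genes were listed by name and function, with earlier results of these data known, and no threshold on their values was used.

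The study put RNA from liver tumours of 6 male mice on 6 Affymetrix arrays, 1 per animal. All 6 mice received a single intraperitoneal dose of the liver carcinogen N-nitrosodiethylamine, 10 µg per g at an age of 14 days, and their tumours were taken at 28 weeks. There were 3 wild-type mice and 3 Alb/AEG-1 transgenic mice, and the labels give a CD-1 background strain for both groups. The transgene encodes AEG-1 (astrocyte elevated gene-1, from the gene Mtdh), had been microinjected as a 5.3-kb fragment into embryos of B6CBAF1/J matings, and is named after the albumin gene, whose promoter is active in hepatocytes. The labels do not say whether the transgenic mice came from 1 founder. Tumours are mixed tissue, so fewer cells of a type and less RNA per cell cannot be told apart. Hepatocyte markers were among the brightest probe sets, at a mean of 13.34 to 13.47 log2 over 8 genes on each array, and did not separate the groups. Each array carries a different animal number: the lower numbers belong to Alb/AEG-1 replicates 1 and 2 with wild-type replicate 1, and the higher ones to the other 3. The labels do not call this a batch, and differences are given within each range where they change the picture.

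Interferons are secreted proteins that cells release on sensing foreign or misplaced nucleic acid. Type I interferons bind the receptor chains IFNAR1 and IFNAR2, the kinases JAK1 and TYK2 become active there, and a complex that contains STAT2 and IRF9 then binds the interferon-stimulated response element in target promoters. Type II interferon acts through the receptor chains IFNGR1 and IFNGR2, and its target promoters carry the gamma-activated site. The induced genes encode nucleic acid sensors, antiviral effectors, ubiquitin-like modifiers and parts of antigen presentation, and hepatocytes and macrophages of the liver can both express them.

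Values below are log2 expression levels, and a difference is the Alb/AEG-1 mean minus the wild-type mean. None of the 33 genes and 0 of their 51 probe sets passed an adjusted p of 0.05 in limma, where the adjustment runs over all 22626 probe sets, and the lowest adjusted p of a member was 0.467. Over the whole array that threshold was passed by 0.00442% of probe sets. At an unadjusted p below 0.05, 12 of the 33 members (36.4%) were higher in Alb/AEG-1 tumours and 0 were lower. Over all genes 3.86% were higher and 4.47% lower at that threshold. Of the 33 members, 27 had a positive difference and 6 a negative one. The median difference was 0.18 log2 over the members and -0.01 over all genes. In 10 members (30.3%) the lowest transgenic value exceeded the highest wild-type one, as it did in 6.77% of all genes, and the reverse occurred in 0 members. The members were brighter than most genes, with a median level of 7.05, and brighter genes were more often positive on these arrays, in 58.9% of those above the median probe set against 47.8% of all genes. Among the 7015 genes whose probe set was brighter than the median probe set, 5.13% were higher at an unadjusted p below 0.05 and the median difference was 0.03, while among the 30 members of that brightness these values were 40% and 0.25. No single member can therefore be called changed, and the values that follow describe the measured differences.

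**Figure D1:**
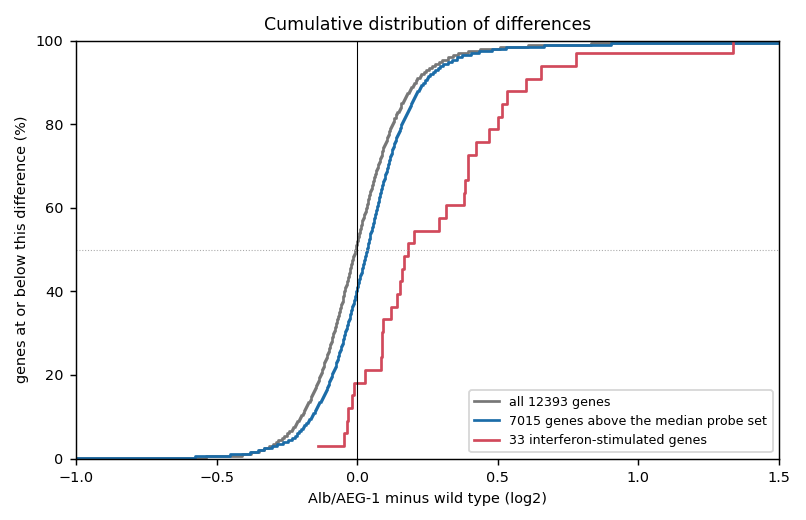
Cumulative distribution of the difference between Alb/AEG-1 and wild-type tumours (x axis, log2) as the percentage of genes at or below each value (y axis), for all 12393 genes, for the 7015 genes brighter than the median probe set and for the 33 interferon-stimulated genes. The curve of the interferon-stimulated genes lies to the right of both others around the middle of the distribution, with medians of 0.18 against -0.01 for all genes and 0.03 for the bright ones.

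Of the 5 transcription factors among the members, Irf7 and Irf9 had unadjusted p-values below 0.05 (40% higher, against 3.86% of all genes). The other 3 did not. Irf7, the factor that amplifies type I interferon expression, was at 7.02, 7.35 and 7.32 on the wild-type arrays and at 7.70, 7.68 and 7.58 on the Alb/AEG-1 arrays. The Alb/AEG-1 arrays were all above the wild-type ones, and the difference was 0.42 ± 0.11 log2 (SE), which is 1.34-fold (95% interval 1.12 to 1.60). Irf9, a DNA-binding subunit of the complex that type I interferon activates, stood at 7.03, 6.49 and 6.63 in the 3 wild-type tumours and 7.29, 7.04 and 7.38 in the 3 transgenic ones. The groups did not overlap, although Alb/AEG-1 replicate 2 and wild-type replicate 1 almost met, and the difference was 0.52 ± 0.16 log2. Irf9 differed by 0.13 among lower animal numbers and 0.81 among higher ones, and Irf7 by 0.67 and 0.24. Both genes had an adjusted p of 0.596 in limma.

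The remaining 3 factors overlapped between groups. Stat2, the partner of IRF9, differed by 0.16 ± 0.14 log2 on its brightest probe set and by -0.15 ± 0.22 on the other. Irf1, a factor induced by both interferon types, differed by 0.17 ± 0.13. Irf8, which is needed for the development of macrophages and dendritic cells, measured 6.22, 6.14 and 6.13 on wild-type arrays and 5.96, 6.08 and 6.32 on transgenic arrays. Its difference of -0.05 ± 0.11 log2 had a 95% interval from -0.30 to 0.21.

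Promoter sequence was examined because IRF9 and its relatives bind a known element. RefSeq promoter windows of assembly GRCm38.p6, from 250 bases before to 50 bases after a gene start, were found for 25 of the 33 measured members. The 8 without one were Ifi27l2a, Ifi27l2b, Mx1, Mx2, Parp14, Rtp4, Usp18 and Zbp1. They include the largest differences of all members, Ifi27l2b (1.34), Rtp4 (0.78) and Usp18 (0.65), and the lowest, Mx2 (-0.14). The medians and shares below leave these genes out. The core of the interferon-stimulated response element was searched as GAAANNGAAA and the gamma-activated site as TTCNNNGAA, on both strands. The first was found in 11 of 25 member genes (44%) and in 3.99% of the 27025 genes with such a window. By window these shares were 35.5% of 31 and 3.44% of 32851. The second motif was found in 10 of 25 member genes (40%) and in 9.55% of all genes. The median difference was 0.16 log2 over the 11 members with the first motif and 0.17 over the 14 without it. It was 0.15 over the 10 members with the second motif and 0.38 over the 15 without it. Of the 8 members with an unadjusted p below 0.05 and a window, 3 held the first motif and 2 the second, and of the other 17 members 8 held the first and 8 the second. A match is a string of letters in this window and shows no binding.

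The windows of the 3 members with an unadjusted p below 0.05 and the first motif, Oas1a, Ifih1 and Rsad2, are shown 5′ to 3′ in the direction of the gene, with matches to the first motif in capitals. Those of Ifit1 and B2m were added after their values were seen, because they hold the motif while the groups overlapped. In Oas1a (chr5:120907476-120907775, minus strand) 2 overlapping matches began 20 and 14 bases before the gene start. In Ifih1 (chr2:62646206-62646505, minus strand) the match began 32 bases after the start. In Rsad2 (chr12:26456403-26456702, minus strand) it began 120 bases before the start and read on the opposite strand. In Ifit1 (chr19:34640639-34640938, plus strand) 2 matches began 104 and 85 bases before the start, both on the opposite strand, and in B2m (chr2:122147437-122147736, plus strand) the match began 139 bases before it.
Oas1a: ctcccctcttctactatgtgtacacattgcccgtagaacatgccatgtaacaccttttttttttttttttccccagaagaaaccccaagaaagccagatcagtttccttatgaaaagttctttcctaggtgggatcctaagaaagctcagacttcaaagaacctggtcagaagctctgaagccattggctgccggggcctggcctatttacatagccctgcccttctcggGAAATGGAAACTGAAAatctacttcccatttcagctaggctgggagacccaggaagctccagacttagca
Ifih1: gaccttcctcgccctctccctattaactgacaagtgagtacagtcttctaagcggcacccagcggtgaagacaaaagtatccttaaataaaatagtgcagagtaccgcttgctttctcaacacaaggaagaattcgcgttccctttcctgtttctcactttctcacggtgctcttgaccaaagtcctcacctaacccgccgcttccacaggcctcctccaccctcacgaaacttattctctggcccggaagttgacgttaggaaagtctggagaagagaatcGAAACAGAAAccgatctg
Rsad2: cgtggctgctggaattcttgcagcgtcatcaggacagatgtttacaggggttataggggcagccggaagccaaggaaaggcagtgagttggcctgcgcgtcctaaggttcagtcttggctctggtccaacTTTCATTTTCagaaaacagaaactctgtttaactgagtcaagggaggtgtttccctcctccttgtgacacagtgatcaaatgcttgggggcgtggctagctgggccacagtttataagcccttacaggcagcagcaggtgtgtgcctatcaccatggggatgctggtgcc
Ifit1: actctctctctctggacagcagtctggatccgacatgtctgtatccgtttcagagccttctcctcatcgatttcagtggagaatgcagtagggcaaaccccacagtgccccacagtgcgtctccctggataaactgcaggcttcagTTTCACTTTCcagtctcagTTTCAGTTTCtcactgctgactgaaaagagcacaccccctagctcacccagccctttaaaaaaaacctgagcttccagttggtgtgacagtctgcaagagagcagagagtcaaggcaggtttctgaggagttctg
B2m: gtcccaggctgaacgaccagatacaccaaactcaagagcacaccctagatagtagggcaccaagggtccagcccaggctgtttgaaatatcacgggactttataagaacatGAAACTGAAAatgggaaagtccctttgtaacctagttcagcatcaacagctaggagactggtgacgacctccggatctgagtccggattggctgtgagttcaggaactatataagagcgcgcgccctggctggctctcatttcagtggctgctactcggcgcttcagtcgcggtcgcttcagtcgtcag

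Of the 8 nucleic acid sensors and enzymes that act on RNA, 6 were positive and 3 had an unadjusted p below 0.05. These 3 (37.5%) were higher, against 3.86% of all genes. Oas1a, a synthetase that makes 2′-5′-linked oligoadenylates on double-stranded RNA and so activates RNase L, read 7.26, 7.15 and 7.09 across the wild-type arrays and 7.46, 8.15 and 7.68 across the transgenic ones. All 3 Alb/AEG-1 arrays were above all wild-type arrays, with replicate 2 the highest, and the difference was 0.60 ± 0.17 log2 (1.51-fold, 95% interval 1.15 to 1.99). It was 0.40 without Alb/AEG-1 replicate 2 and nearly equal in the ranges of animal numbers, 0.55 among lower numbers and 0.56 among higher. Ifih1, which encodes MDA5, a sensor of long double-stranded RNA, stood at 8.15, 8.25 and 7.72 in the 3 wild-type tumours and 8.31, 8.46 and 8.49 in the 3 transgenic ones. The groups did not overlap but lay close, and the difference of 0.38 ± 0.14 log2 was 0.22 without wild-type replicate 3, the lowest array.

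Adar, the adenosine deaminase that edits double-stranded RNA, measured 6.12, 6.19 and 5.97 on wild-type arrays and 6.53, 6.26 and 6.36 on transgenic arrays. The groups did not overlap, and the difference was 0.29 ± 0.10 log2 (1.22-fold), with 0.27 among lower animal numbers and 0.28 among higher ones. Oasl1, an OAS-like protein that restrains Irf7 translation, had a similar mean difference to Ifih1, 0.39 ± 0.25, with a wider spread. It read 7.31, 6.61 and 6.55 across the wild-type arrays and 6.77, 7.39 and 7.50 across the transgenic ones, so that wild-type replicate 1 and Alb/AEG-1 replicate 1 each lay nearer the other group. Its relative Oasl2 was dim and differed by 0.12 ± 0.16. Zbp1, a sensor of left-handed nucleic acid, differed by 0.09 ± 0.09, Eif2ak2, the kinase PKR, by -0.01 ± 0.13, and Samhd1, a deoxynucleotide triphosphate hydrolase, by -0.02 ± 0.11. Samhd1 had 4 probe sets with differences of -0.02 ± 0.11, -0.19 ± 0.11, 0.23 ± 0.09 and -0.13 ± 0.09. On the one at 0.23 the groups did not overlap (limma, unadjusted p = 0.0437, adjusted p = 0.616). The second Eif2ak2 probe set differed by 0.27 ± 0.11 with overlapping groups (limma, unadjusted p = 0.035, adjusted p = 0.611). The second Zbp1 probe set differed by -0.15 ± 0.11.

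**Figure D2:**
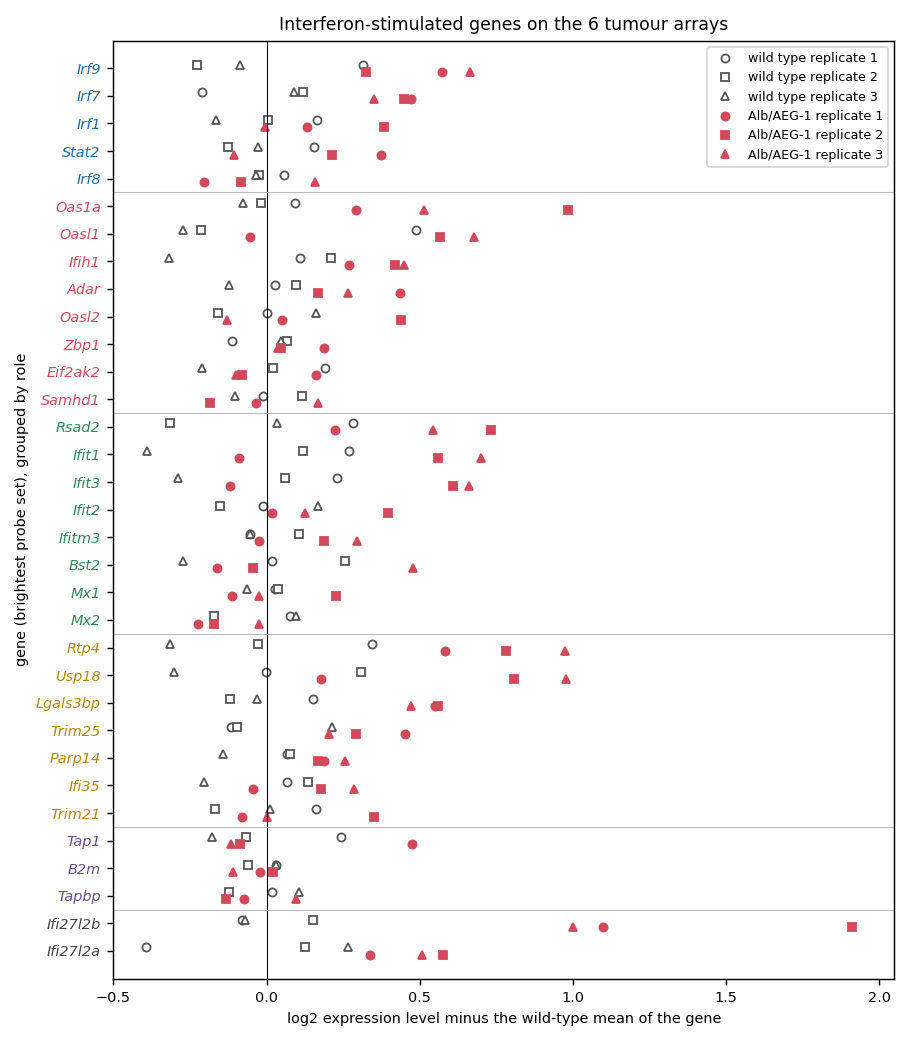
Each point is 1 array's log2 level minus the wild-type mean of the gene (x axis) for 33 interferon-stimulated genes (y axis), which are grouped by role and ordered by difference within a group; open symbols are wild-type and filled symbols Alb/AEG-1 tumours. The filled symbols lie beyond the open ones in 10 genes, among them Irf7, Irf9, Oas1a, Rtp4, Lgals3bp and Ifi27l2b, and the Alb/AEG-1 replicate 1 values fall among the open ones in Ifit1, Ifit3 and Oasl1.

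Of the 8 antiviral effectors 7 had a positive difference and 1 (12.5%) had an unadjusted p below 0.05, and the groups separated in 0 of them. Over all genes 47.8% were positive, 3.86% were higher at that threshold and 6.77% separated with Alb/AEG-1 higher. Whether the role groups differ from each other was not tested. Rsad2 encodes viperin, a radical SAM enzyme that makes a chain-terminating nucleotide. It stood at 7.32, 6.72 and 7.07 in the 3 wild-type tumours and 7.26, 7.77 and 7.58 in the 3 transgenic ones. Alb/AEG-1 replicate 1 lay below wild-type replicate 1, and the difference was 0.50 ± 0.18 log2 (limma, adjusted p = 0.611). Its dimmer probe sets differed by 0.36 ± 0.21 and 0.14 ± 0.12. The brightest probe set differed by 0.19 among lower animal numbers and 0.68 among higher ones, and by 0.34 without wild-type replicate 2.

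IFIT proteins bind viral RNA ends and block translation. Ifit1 measured 6.21, 6.06 and 5.55 on wild-type arrays and 5.85, 6.50 and 6.64 on transgenic arrays. Ifit3 read 6.95, 6.78 and 6.43 across the wild-type arrays and 6.60, 7.33 and 7.38 across the transgenic ones. In both genes Alb/AEG-1 replicates 2 and 3 were the highest of the 6 arrays and Alb/AEG-1 replicate 1 lay between the wild-type values. The differences were 0.39 ± 0.24 for Ifit1 and 0.38 ± 0.23 log2 for Ifit3. Among lower animal numbers they were -0.03 and 0.01, and among higher ones 0.84 and 0.77.

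The other effectors had differences from -0.14 to 0.18. Ifit2 differed by 0.18 ± 0.13 log2 and Ifitm3, a membrane protein that blocks virus entry and the second brightest member at 12.16 in wild-type tumours, by 0.15 ± 0.11. Bst2, the tetherin that holds budding virions, differed by 0.09 ± 0.20, with Alb/AEG-1 replicate 3 its highest array at 10.03 and both other Alb/AEG-1 arrays within the wild-type range. The dynamin-like Mx1 was at 3.58 ± 0.06 (SD, n = 3) and 3.60 ± 0.18, near the low end of the scale. Mx2 differed by -0.14 ± 0.11, the lowest value of any member.

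Regulators of the ISG15 and ubiquitin pathways, with other interferon-induced regulators, were positive in all 7 measured genes on the brightest probe set. Of these, 4 had an unadjusted p below 0.05 (57.1% higher, against 3.86% of all genes). Lgals3bp, which encodes a secreted galectin-binding glycoprotein, stood at 7.87, 7.60 and 7.69 in the 3 wild-type tumours and 8.27, 8.28 and 8.19 in the 3 transgenic ones. The groups stood clearly apart, with an SD of 0.05 among the Alb/AEG-1 arrays, and the difference of 0.53 ± 0.09 log2 was 1.45-fold (95% interval 1.24 to 1.69; limma, adjusted p = 0.467). Leaving out any 1 array kept it between 0.47 and 0.61. Rtp4, a chaperone of G protein-coupled receptors that is strongly interferon-induced, measured 7.86, 7.49 and 7.20 on wild-type arrays and 8.10, 8.30 and 8.49 on transgenic arrays. No Alb/AEG-1 array reached down to the wild-type ones. The difference was 0.78 ± 0.18 log2 (1.72-fold, 95% interval 1.29 to 2.29), 0.34 among lower animal numbers and 1.14 among higher ones, and a second, dimmer probe set differed by 0.19 ± 0.08.

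Usp18, the protease that removes ISG15 and also damps signalling at IFNAR2, read 6.52, 6.83 and 6.22 across the wild-type arrays and 6.70, 7.33 and 7.50 across the transgenic ones. Alb/AEG-1 replicate 1 lay among the wild-type values, and the difference was 0.65 ± 0.23 log2, 0.49 among lower animal numbers and 0.98 among higher ones. Trim25, a ubiquitin ligase for the RNA sensor RIG-I, lay between 8.98 and 9.31 on the wild-type arrays, highest on replicate 3, and stood at 9.55, 9.39 and 9.30 on the transgenic ones, with 0.32 ± 0.12 between the means, by a probe set of the kind that can cross-bind. Wild-type replicate 3 met Alb/AEG-1 replicate 3 there, while on the next Trim25 probe set the groups did not overlap (0.39 ± 0.11). On the dimmest Trim25 probe set they overlapped (0.19 ± 0.14), with -0.03 among lower animal numbers and 0.34 among higher ones. Parp14, an ADP-ribosyltransferase, measured 7.07, 7.08 and 6.86 on wild-type arrays and 7.19, 7.17 and 7.26 on transgenic arrays. These values did not overlap, with a difference of 0.20 ± 0.09 whose 95% interval, -0.01 to 0.42, includes 0. Ifi35, a leucine zipper protein, differed by 0.14 ± 0.13 and Trim21, an intracellular antibody receptor, by 0.09 ± 0.14. A dimmer Trim21 probe set differed by -0.06 ± 0.08.

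The 3 antigen presentation genes had differences from -0.04 to 0.09, and 0 had an unadjusted p below 0.05 on the brightest probe set. B2m, the invariant light chain of MHC class I and the brightest member, read 13.77, 13.68 and 13.77 across the wild-type arrays and 13.72, 13.76 and 13.63 across the transgenic ones. The groups overlapped fully. The difference of -0.03 ± 0.08 log2 had a 95% interval from -0.22 to 0.16. The second B2m probe set differed by -0.01 ± 0.08. Tapbp, which encodes tapasin of the peptide-loading complex, differed by -0.04 ± 0.10 (95% interval -0.27 to 0.20) and on a dimmer probe set by 0.11 ± 0.09. Tap1, a subunit of the peptide transporter, differed by 0.09 ± 0.18 on its brightest probe set, with overlapping groups. Of its 3 dimmer probe sets, one differed by -0.00 ± 0.11 and another by 0.01 ± 0.11. The remaining Tap1 probe set, of the cross-binding kind, read 3.70, 3.55 and 3.69 across the wild-type arrays and 3.37, 3.17 and 3.18 across the transgenic ones. The transgenic arrays were all lower there, by -0.41 ± 0.09 log2 (limma, unadjusted p = 0.00282, adjusted p = 0.596). It was the 1 member probe set of 51 that was lower at an unadjusted p below 0.05, and 15 were higher. Over all genes, by the brightest probe set, 4.47% were lower and 3.86% higher at that threshold. Some of the 15 measure the same gene, and the share over all probe sets is not given here.

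The Ifi27 family, small membrane proteins of mitochondria and the nuclear envelope, held the largest difference. Ifi27l2b stood at 6.45, 6.68 and 6.46 in the 3 wild-type tumours and 7.63, 8.44 and 7.53 in the 3 transgenic ones. Every Alb/AEG-1 array was well above every wild-type one, and replicate 2 was the highest. The difference was 1.34 ± 0.23 log2, which is 2.53-fold (95% interval 1.75 to 3.66; limma, adjusted p = 0.467), and 1.05 when Alb/AEG-1 replicate 2 was left out. Its single probe set can also detect near-identical transcripts. Ifi27l2a measured 6.21, 6.73 and 6.87 on wild-type arrays and 6.94, 7.18 and 7.11 on transgenic arrays. The groups did not overlap but nearly met, and the difference of 0.47 ± 0.17 log2 was 0.27 without wild-type replicate 1, the lowest array. Among lower and higher animal numbers Ifi27l2b differed by 1.59 and 0.96, and Ifi27l2a by 0.84 and 0.31.

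**Figure D3:**
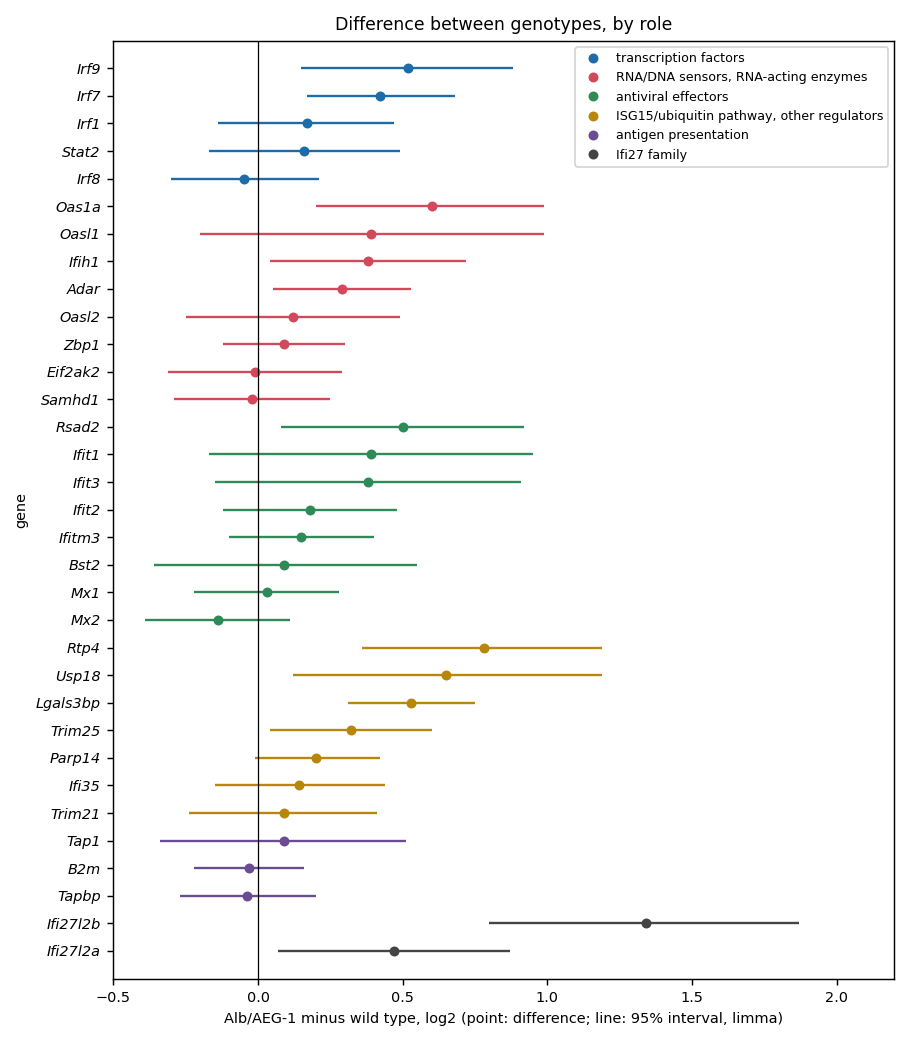
Difference between Alb/AEG-1 and wild-type tumours (x axis, log2; points) with its 95% interval from limma (lines) for the 33 genes (y axis), coloured by role. The intervals of 12 genes lie above 0, with Ifi27l2b at 1.34 and Rtp4 at 0.78 highest, and those of the antigen presentation genes B2m, Tapbp and Tap1 include 0.

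The 12 genes at an unadjusted p below 0.05 were not equally stable when 1 array was left out. Ifi27l2b, Lgals3bp, Rtp4, Irf7, Oas1a and Irf9 stayed below 0.05 in all such fits. The other 6, Usp18, Adar, Rsad2, Ifi27l2a, Trim25 and Ifih1, lost it in at least 1. With a term for the animal number range in the limma fit, Rsad2 (unadjusted p = 0.0548), Ifih1 (0.0565) and Trim25 (0.0503) were above 0.05. That left 9 genes (27.3%), against 3.07% of all genes in that fit. Among lower and higher animal numbers Ifih1 differed by 0.24 and 0.50, and Trim25 by 0.49 and 0.14. The count of 12 (36.4%) became 7 (21.2%), against 2.76% of all genes, without Alb/AEG-1 replicate 2. The count of 10 members with separated groups became 17 without Alb/AEG-1 replicate 1, the array that was lowest of its group in 17 of 33 members. Leaving out an array cannot lower this count, and its share over all genes in that fit is not given here. No conclusion is drawn from the rise. Wild-type replicate 3 was the lowest wild-type array in 17 members and wild-type replicate 1 the highest in 15.

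**Figure D4:**
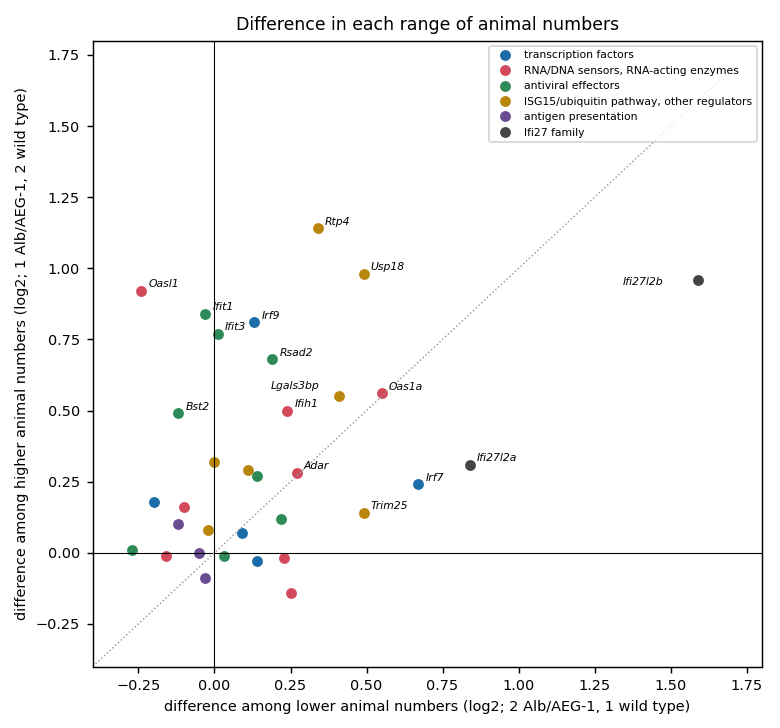
Difference between Alb/AEG-1 and wild-type tumours for each of the 33 genes among arrays with lower animal numbers (x axis, log2; Alb/AEG-1 replicates 1 and 2 against wild-type replicate 1) and among those with higher ones (y axis, log2; Alb/AEG-1 replicate 3 against wild-type replicates 2 and 3), with role by colour and a dotted line of equality. Oas1a and Adar lie close to the line, Oasl1, Ifit1 and Ifit3 lie far above it with -0.24, -0.03 and 0.01 among the lower numbers, and Ifi27l2b, Ifi27l2a and Irf7 lie below the line.

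The median difference over the 33 members was 0.13 among lower animal numbers and 0.27 among higher ones, and 18 members were positive in both. Over all genes the medians were -0.00 and -0.01, and 3194 of 12393 genes were positive in both ranges. Among genes brighter than the median probe set 2249 of 7015 were positive in both. Arrays averaged over the 33 members stood at 7.29, 7.21 and 7.14 in wild-type and at 7.39, 7.57 and 7.52 in Alb/AEG-1 tumours, with no overlap. The antiviral effectors averaged over 8 genes did overlap, at 7.09, 6.98 and 6.89 against 6.92, 7.30 and 7.33.

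The interferons themselves lay low on the scale. Over 10 measured interferon genes of 18 listed, the median level was 4.04 against 5.83 for the median probe set. At an unadjusted p below 0.05 there were 0 higher genes and 2 lower ones (over all genes 3.86% and 4.47%). Those 2 were Ifna1, by -0.37 ± 0.09 log2 by a probe set that can cross-bind, and Ifna2, by -0.33 ± 0.11. Ifnb1, the interferon beta gene, read 4.03, 4.72 and 4.36 across the wild-type arrays and 4.40, 4.41 and 4.11 across the transgenic ones, and Ifng, the type II interferon, lay between 2.94 and 3.08 on all 6 arrays. Next by p-value came Ifnab (-0.21 ± 0.09, by a cross-binding probe set) and Ifnz (0.15 ± 0.09), and in both the groups overlapped.

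Among the receptor chains, 4 of 5 measured genes were positive and 1 had an unadjusted p below 0.05 (20% higher, against 3.86% of all genes). Ifngr1, the ligand-binding chain for type II interferon, stood at 7.34, 7.24 and 7.22 in the 3 wild-type tumours and 7.52, 7.91 and 7.66 in the 3 transgenic ones. The groups did not overlap, and the difference was 0.43 ± 0.11 log2 (1.35-fold; limma, adjusted p = 0.596). Its partner Ifngr2 differed by 0.28 ± 0.12 with overlapping groups. For type I interferon, Ifnar1 differed by 0.23 ± 0.10 without overlap and Ifnar2 by -0.02 ± 0.09, while Il10rb, a chain of the type III receptor, differed by 0.09 ± 0.09.

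Of 13 measured kinases, STATs and negative regulators, Ptpn2 alone had an unadjusted p below 0.05 (7.69% higher, against 3.86% of all genes). It encodes a tyrosine phosphatase that acts on JAK1, and it measured 7.65, 7.67 and 7.66 on wild-type arrays and 7.92, 7.98 and 8.09 on transgenic arrays, 0.34 ± 0.08 log2 apart on average. The next by p-value were the phosphatase gene Ptpn1 (0.10 ± 0.08), the SUMO ligase gene Pias1 (0.09 ± 0.08) and the phosphatase gene Ptpn6 (-0.11 ± 0.09). Of 14 genes of interferon induction, 1 was higher (7.14%) and 1 lower at that threshold, against 3.86% and 4.47% of all genes. No conclusion about either list is drawn from 1 gene. Dhx58, the RIG-I relative LGP2 and itself interferon-induced, differed by 0.42 ± 0.12, and Tmem173, which encodes the adaptor STING, by -0.23 ± 0.09. The kinase gene Ikbke (0.27 ± 0.13) and the DNA sensor gene Tlr9 (-0.15 ± 0.09) followed, above that threshold.

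A further list held 41 measured interferon-stimulated genes outside the 33. Of these, 26 were positive and the median difference was 0.09 log2. At an unadjusted p below 0.05, 4 (9.76%) were higher and 3 lower, against 3.86% and 4.47% of all genes. The groups separated in 6 with Alb/AEG-1 higher (14.6%, against 6.77% of all genes). They separated in 4 with Alb/AEG-1 lower, as in 1030 of all 12393 genes. The 4 higher by p-value were the chemokine genes Cxcl9 (0.69 ± 0.20) and Cxcl10 (0.34 ± 0.13), the immunoproteasome subunit gene Psmb9 (0.43 ± 0.15) and the nucleotide kinase gene Cmpk2 (0.30 ± 0.12). The 3 lower by p-value were Epsti1 (-0.42 ± 0.16), the transcription factor gene Batf2 (-0.30 ± 0.11) and Oas2 (-0.29 ± 0.11), a close relative of Oas1a. Cxcl10, Cmpk2 and Epsti1, and the OAS relatives in the next sentence, were named after their values were seen. The OAS family differed from gene to gene, with Oas1a at 0.60, Oasl1 at 0.39, Oasl2 at 0.12, Oas1b at -0.05, Oas3 at -0.21 and Oas2 at -0.29. Whether these differences differ from each other was not tested.

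Markers of macrophages were mostly higher in Alb/AEG-1 tumours, as the members were. Of 15 measured macrophage and Kupffer cell markers 14 were positive, with a median difference of 0.42 log2. At an unadjusted p below 0.05, 5 of the 15 were higher (33.3%, against 3.86% of all genes). Their mean level was between 6.58 and 6.90 on the wild-type arrays and between 6.89 and 7.38 on the Alb/AEG-1 arrays, so the ranges met at 6.89 and 6.90. Within the lower animal numbers the macrophage mean differed by 0.11 and that of the 33 members by 0.18, and within the higher by 0.76 and 0.35. Gene by gene, 9 of 15 were positive among lower numbers (median 0.03) and 14 among higher ones (median 0.81). The 4 with the smallest p-values were Aif1 (0.55 ± 0.15), the complement gene C1qb (0.76 ± 0.21), the perforin-like Mpeg1 (0.90 ± 0.25) and Cd5l (0.54 ± 0.17). Among lower numbers these 4 differed by 0.27, 0.23, 0.71 and 0.14, and among higher ones by 0.78, 1.13, 0.93 and 0.99. The part of macrophage RNA in the members' differences was not tested.

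Lists for the other cell types had mean differences between -0.14 and 0.17. Over 6 dendritic cell markers the mean level was 4.57 to 4.78 in wild-type and 4.49 to 4.63 in Alb/AEG-1 tumours, and over 13 T and NK cell markers 4.45 to 4.60 against 4.31 to 4.47. All 6 dendritic markers lay below the median probe set, and the plasmacytoid marker Siglech was not analysed here. Means of the B and plasma cell, neutrophil, endothelial, stellate and cholangiocyte lists overlapped between groups, with differences of 0.17, 0.08, 0.03, 0.02 and 0.08. The neutrophil mean differed by 0.55 among lower animal numbers and by -0.32 among higher ones.

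**Figure D5:**
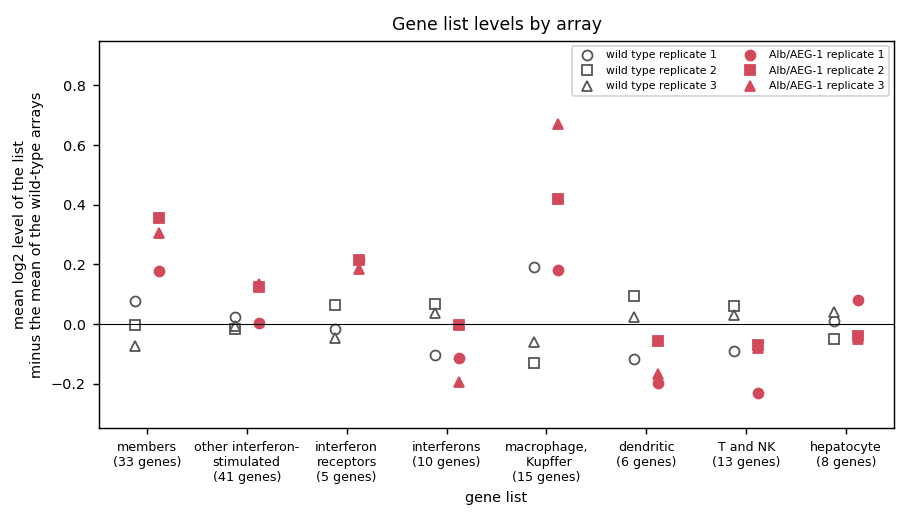
Mean log2 level of each gene list on each array minus the mean of the 3 wild-type arrays (y axis) for 8 lists (x axis), with open symbols for wild-type and filled symbols for Alb/AEG-1 tumours. The groups separate for the 33 members and the 5 interferon receptors, the macrophage list has its highest value on Alb/AEG-1 replicate 3 at 7.38 log2, and the hepatocyte list stays within 13.34 to 13.47.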

How the data were processed

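Total RNA of 6 liver tumours was hybridised to Affymetrix arrays as biotin-labelled cRNA, per the labels' protocols. The deposited values are log2 expression levels that the authors made with RMA, per the submitters' processing notes. They hold 22690 probe sets, run from 2.22 to 14.86 and keep no read depth, so the number of arrays limits the precision. Array medians differed by at most 0.0301 log2. Probe sets were named from GEO's platform annotation: 20380 had 1 gene symbol, 691 several and 1555 none, and 64 controls were left out.

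Genotypes were compared in limma 3.58.1 (R 4.3.3; lmFit and eBayes) on 22626 probe sets, with Benjamini-Hochberg adjustment over all of them, and the script was tested on simulated data. With 3 arrays against 3, a two-sided exact permutation test cannot go below 0.1. Nothing in the labels ties arrays to litters, and each array is 1 animal. Every member at an unadjusted p below 0.05 was named with all 6 values (for Trim25 the wild-type values as a range), then the extremes of each role group, and in the pathway and macrophage lists the 4 smallest p-values, with any interferon or receptor. The members and lists were chosen with earlier results of these data known. There were 16 alternative settings: moderation with a trend or robustly, renormalization, median centring, filters on dim or cross-binding probe sets, the probe set rule, array weights, animal number range as a term, and each array left out. Promoter windows are RefSeq's (GRCm38.p6). Figures were drawn with matplotlib 3.10.9.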

Additional observations from a re-analysis of the deposited data

How the results depend on the processing

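None of the 33 members passed an adjusted p of 0.05 in limma under any of the 16 alternatives, where the lowest adjusted p of a member ran from 0.118 to 0.869, while 12 were below 0.05 unadjusted in the main analysis. That count ran from 7 to 13 when 1 array was left out, with 7 without Alb/AEG-1 replicate 2. In these fits the share over all genes ran from 2.54% to 6.06%. The count was 10 (30.3%, against 3.57% of all genes) after quantile normalization. It was 9 (27.3%, against 3.07%) when the model held a term for animal numbers, with Rsad2, Ifih1 and Trim25 then above 0.05. The count of 10 separated members fell to 8 after quantile normalization. It ran from 10 to 17 over the fits without 1 array, which cannot lower it, with 17 without Alb/AEG-1 replicate 1. The share of separated genes over the whole array is not given for these settings. The median member difference was 0.18 log2, 0.27 within the higher animal numbers and 0.13 within the lower. No difference of the 12 changed sign in any alternative that held the gene, but the 12 were picked by p-value on these same arrays. Moderation with a trend or robustly leaves a difference unchanged, and Ifi27l2b was absent where cross-binding probe sets were left out. Why some of the 12 rose above 0.05 in an alternative was not tested, and some did so with all 6 arrays in the fit. No paired analysis was possible because the labels give the arrays no shared replicate numbers.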
